A study of Homo sapiens with 6 samples.

Results

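The genes described here are 50 genes of protein entry into the endoplasmic reticulum (ER) and of coated-vesicle transport between the ER and the Golgi, out of 17269 genes in the deposited table. They were picked by symbol for their known roles, and all 50 were found and had enough counts to be tested. They comprise 8 genes of the signal recognition particle (SRP) and its receptor, 10 of the translocon, 5 of signal peptidase, 11 of COPII, 10 of COPI with its ARF GTPases, and 6 cargo receptors and SNAREs. The cells were HCT116, an established human colorectal carcinoma line, grown in RPMI1640 medium with serum. The 3 control libraries (shCtrl) carry the genotype label WT and the 3 others (shPRSS22) the label PRSS22 knockdown. The comparison thus asks which transcripts differ between controls and cells with knockdown of the secreted serine protease gene PRSS22. Depletion of PRSS22, other effects of the hairpin and differences between the cell populations cannot be told apart. Each library is poly(A)-selected RNA; the hairpin sequences, the time after their introduction and whether the cells were a clone or a pool are not given in the sources used here. Nothing in the labels says that replicates were separate cultures, so p-values measure the spread between these libraries, which may be technical.

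As background, SRP binds the signal peptide of a nascent secretory protein and brings the ribosome to the SRP receptor, from which the chain passes through the SEC61 channel, and signal peptidase cuts the signal peptide off. COPII coats, built by the SAR1 GTPases, SEC23, SEC24, SEC13 and SEC31, bud vesicles that leave the ER. COPI coats, recruited by ARF GTPases, bring escaped ER proteins and cargo receptors back, and the KDEL receptors return soluble ER residents. In intestinal epithelial cells this route carries mucins, proteases and membrane receptors. The transcription factors XBP1 and ATF6 are known to raise many of these genes when unfolded proteins gather in the ER.

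Known binding sequences of those factors, and several other motifs, were searched in RefSeq promoter windows (GRCh38.p14). Each window reached from 250 bases before to 50 bases after an annotated transcript start. Windows existed for 45 of the 50 genes; ARF4, KDELR2, SEC24D, SPCS1 and SRPRA had none. The unfolded protein response element TGACGTGG, on either strand, was present for 12 of 45 genes (26.7%), against 253 of all 27305 genes with a window (0.927%) and 127 of 10711 such genes tested here (1.19%). The 12 genes held 13 sites, COPB2 having 2. Every site is shown for the 7 genes that also rose in shPRSS22, and the site of 2 of the 5 that did not pass the test. Each line runs 5′ to 3′ on the gene's strand, with the element in capitals; it reads CCACGTCA where it lies on the opposite strand.
SEC24A (chr5:134648596-134648623, plus strand): tgagagtcggTGACGTGGcggcgaggcc
SEC23A (chr14:39103222-39103249, minus strand): cccctcctctTGACGTGGcagaggcggc
SRP19 (chr5:112861165-112861192, plus strand): agtcttcatgCCACGTCAgagactagag
KDELR3 (chr22:38468040-38468067, plus strand): gccgccctggCCACGTCAccgcccggcc
COPB2 (chr3:139389826-139389853, minus strand): ctcagcggcaCCACGTCAcggcccttag
COPB2, second site (chr3:139389633-139389660, minus strand): cccggaagttCCACGTCAgtcagtctga
COPB1 (chr11:14499842-14499869, minus strand): ccacccccttCCACGTCAgccaaggact
COPA (chr1:160343228-160343255, minus strand): agagggtcgcTGACGTGGaggcgtccga
SSR3 (chr3:156554149-156554176, minus strand): ctgataacagCCACGTCAgcaaggaaac
SEC62 (chr3:169966780-169966807, plus strand): cctcctcgctCCACGTCAgagggaaccg

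The element was thus shared by genes of SRP, translocon and both coats. Of the 12 genes with it, 7 rose, 0 fell and 5 did not pass the test (SEC62, SSR3, SSR4, SEC16A and ARF1). Of the 33 genes with a window but without it, 15 rose and 5 fell. Over all 127 tested genes with the element, 38 were higher in shPRSS22 (29.9%) and 22 lower (17.3%). The longer ER stress response element was found for 1 of the 45 genes, SERP1, and for 25 of all 27305. It is printed because SERP1 had the largest rise of the 50 genes; it lies on the opposite strand, starting 232 bases before the start, with the element in capitals.
SERP1 (chr3:150546705-150546733, minus strand): tcatgCGTGGAGACAGCGAATTGGtgttt

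On both strands, the ER stress response element II and the cyclic AMP response element TGACGTCA were found in 0 of the 45 genes' windows, against 0.0696% and 2.25% of all genes. TGATGNAAN, a composite site of the amino acid response, was found for SRPRB alone (4.45% of all genes). The antioxidant core TGACNNNGC was found for 12 of 45 genes (26.7%) against 16.1% of all genes and 19.4% of those tested, and it overlapped 8 of the 13 TGACGTGG sites. GCCACGTG was found for SSR1, SSR3, SEC11C and SEC24A, against 1.87% of all genes. These matches describe letters in a window and say nothing of binding.

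More of the 50 genes were higher in shPRSS22 than lower, and every change was small. At an adjusted p under 0.05 (edgeR quasi-likelihood test, Benjamini-Hochberg over 13104 genes), 25 rose, 6 fell and 19 did not pass. Over all genes tested, 19.9% were called higher and 19.3% lower, and 39.1% either way. The median log2 fold change of the 50 was 0.10, against -0.01 over all genes tested. The median fold among the 31 called was 1.15 (1.19 over all called genes), and none reached 2-fold. In 29 genes every shPRSS22 library stood above every shCtrl library in CPM (counts scaled to library size), and in 6 every one stood below, where 24.2% and 24.3% of all genes did so (48.6% either way). Mean CPM spanned 52.1 to 709.9 for the 50 genes and 0.457 to 21990 for all genes tested. Small changes pass more readily at high counts, and the shares above were not compared with genes of like CPM. Together the 50 genes took 1.08%, 1.091% and 1.105% of the counts in the shCtrl libraries and 1.153%, 1.151% and 1.165% in the shPRSS22 libraries. In bulk RNA, a change in the cells' mixture and a change per cell cannot be told apart.

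Of the 31 called genes, 22 stayed past the threshold under all 11 alternative settings, 19 of them higher and 3 lower. The genes called lower numbered 3 without shCtrl library 2 or without shPRSS22 library 3, and the genes called higher numbered between 21 and 27 when any single library was left out. DESeq2 called 21 of the 50 higher and 4 lower (13.8% and 12.9% of all genes it tested). The authors' deposited table lists 20 as higher and 4 as lower at a q-value under 0.05, where it lists 9.69% and 8.89% of all genes; all 24 were called in the same direction here.

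**Figure D1:**
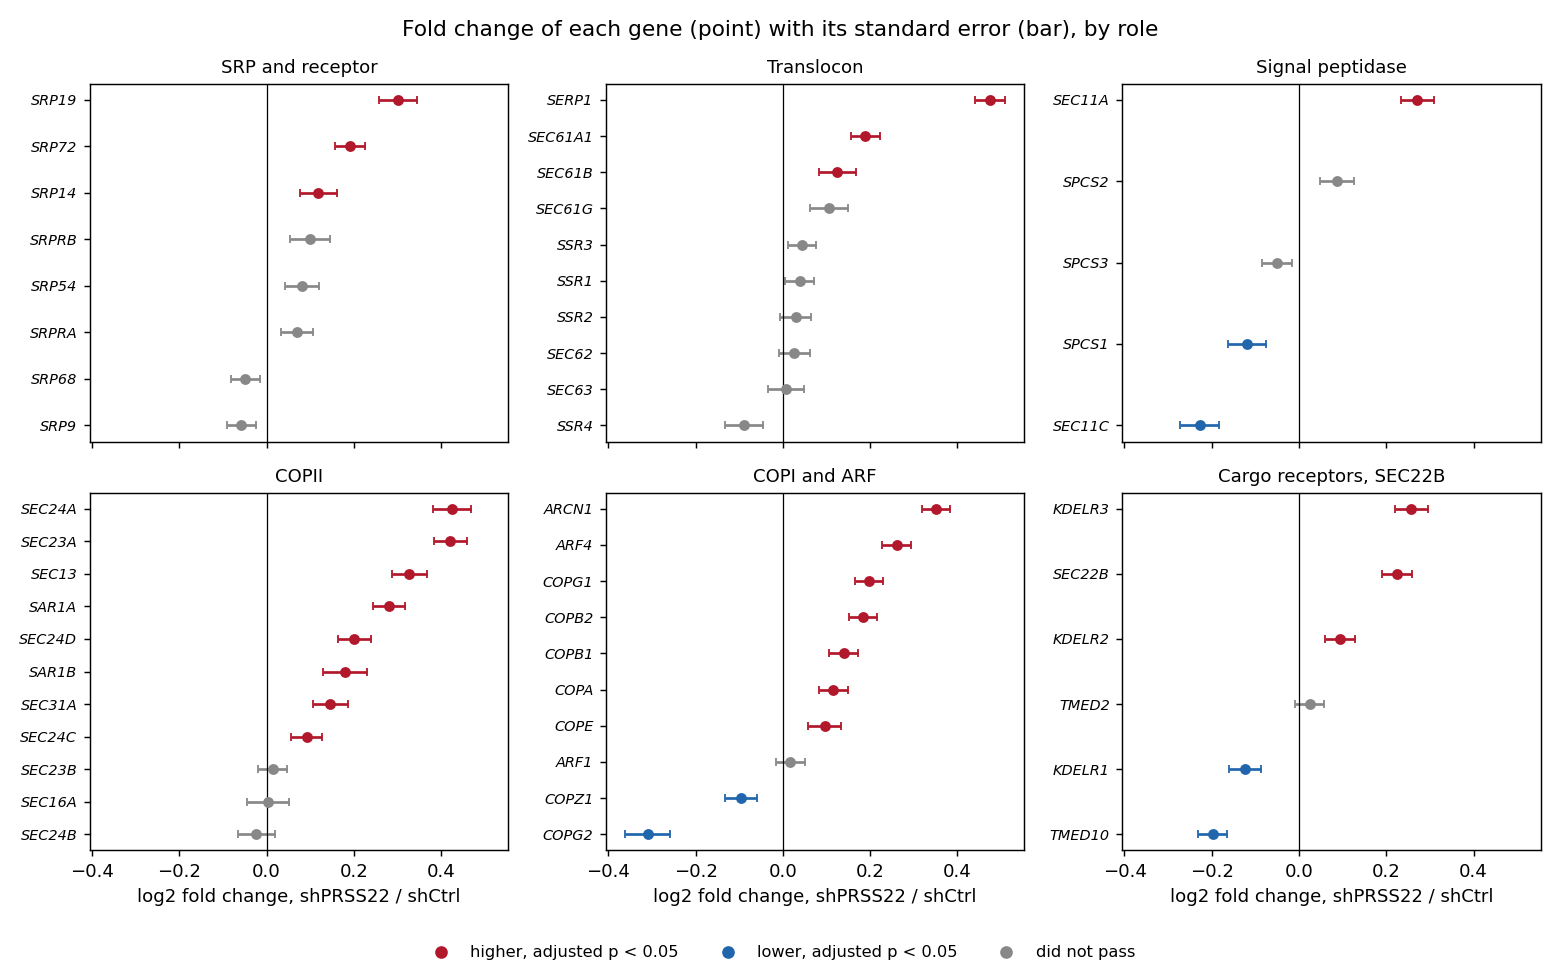
Log2 fold change (horizontal axis) of the 50 genes in shPRSS22 against shCtrl, 1 panel per role; points are edgeR estimates, bars their standard errors, red and blue mark genes called higher and lower. COPII and COPI hold most of the genes that rose. No gene of SRP (8 genes), translocon (10) or COPII (11) was called lower, where 19.3% of all genes tested were. In groups this small, a count of 0 is not far from that share.

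The libraries carried between 14920523 and 15466647 counts. PRSS22, the targeted gene, stood at 10.1, 9.38 and 10.1 CPM in the control libraries, in label order as throughout, and at 3.09, 3.16 and 2.61 CPM after knockdown. Its log2 fold change was -1.74 (SE 0.135; edgeR, adjusted p = 4.78e-12). Epithelial markers such as EPCAM, KRT8 and KRT18 were present in all libraries, and the summed level of 13 colorectal epithelial markers spanned 4621 to 4794 CPM in shCtrl and 4549 to 4804 CPM in shPRSS22, unscaled. The intestinal markers CEACAM5, LGALS4, GPA33, VIL1 and CDH17 were each under 1 CPM on average. The intestinal factor CDX2 was present, at 9.72 CPM on average in shCtrl and 9.92 CPM in shPRSS22. The fibroblast sum was 24.6 to 32.2 CPM in shCtrl and 28.8 to 35.1 CPM in shPRSS22 and was mostly COL1A1. Of the fibroblast, immune and endothelial markers, PTPRC, DCN, THY1 and CDH5 had at most 1 count in any library. The others had more than 1 count in at least 1 library, for example PECAM1 1 to 6, LYZ 2 to 9, PDGFRB 2 to 9 and VWF 9 to 24. The immune sum, mostly CD68, was 14.4 to 15.8 CPM and 16.2 to 19.3 CPM, and the endothelial sum 1.06 to 2.18 and 1.68 to 2.28 CPM. Of the markers tested one by one, CDH1 (log2 fold change 0.15), CLDN7 (0.29) and CD68 (0.24) rose and CLDN4 (-0.25) fell, while COL1A1 (0.08) and VWF (0.34) did not pass. The part of these differences in the results below was not tested.

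Genes that bring nascent chains to the ER membrane rose in part. Of the 8 SRP and SRP receptor genes, 3 rose and 0 fell, with a median log2 fold change of 0.09. These are 37.5% and 0%, against 19.9% and 19.3% of all genes tested, in a group of only 8. SRP19, an SRP protein that binds the particle's RNA and helps SRP54 join, had 65.9, 64.4 and 64.6 CPM in shCtrl and 80.6, 81.9 and 77.5 CPM in shPRSS22. All 3 knockdown libraries stood above all controls, a log2 fold change of 0.30 (SE 0.0434; edgeR, adjusted p = 1.48e-06). SRP72, which with SRP68 forms the largest protein pair of the particle, had 222, 224 and 228 CPM in shCtrl and 248, 264 and 257 CPM in shPRSS22. Its groups did not overlap either (log2 fold change 0.19, SE 0.0337), whereas its partner SRP68 had a value of -0.05 (95% interval -0.12 to 0.02) and did not pass.

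SRP14, part of the domain that slows translation, had 94.1, 93.6 and 96.7 CPM in shCtrl and 98.4, 109 and 102 CPM in shPRSS22. The groups did not overlap, and it rose by 0.12 on the log2 scale (edgeR, adjusted p = 0.0225). The call missed the threshold without shCtrl library 1 (edgeR, adjusted p = 0.0708), shCtrl library 2 (0.0842) or shPRSS22 library 2 (0.137), and with DESeq2 (0.0876). Its partner SRP9 stood at -0.06 and did not pass. SRP54, the subunit that binds signal peptides, had a value of 0.08 (adjusted p = 0.0937). The receptor subunits SRPRA and SRPRB, which receive the particle at the membrane, had values of 0.07 and 0.10 and did not pass; without shPRSS22 library 1, SRPRB was called higher (0.14, adjusted p = 0.0246).

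In the translocon, 3 of 10 genes rose and 0 fell, with a median of 0.04. The shares of all genes tested were 19.9% and 19.3%, so in 10 genes these counts are not far from the background. SERP1, a small membrane protein that associates with SEC61 and is known to protect newly made proteins during ER stress, changed most of all 50 genes. It had 207, 224 and 221 CPM in shCtrl and 306, 299 and 303 CPM in shPRSS22. The groups were far apart relative to their spread, a 1.39-fold rise (log2 fold change 0.48, 95% interval 0.41 to 0.55; edgeR, adjusted p = 8.91e-13). SERP1 shares exon bases on the opposite strand with EIF2A (log2 fold change 0.09) and SELENOT (0.01), neither of which passed.

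SEC61A1, the channel's pore-forming subunit, had 583, 610 and 598 CPM in shCtrl and 675, 674 and 694 CPM in shPRSS22. Every knockdown library was above every control (log2 fold change 0.19, SE 0.0333; edgeR, adjusted p = 3.07e-05). The small channel subunit SEC61B had 75.6, 75.1 and 73.9 CPM in shCtrl and 78.8, 84.7 and 81.5 CPM in shPRSS22. It rose by 0.13 with no overlap, and missed the threshold without shCtrl library 2 (adjusted p = 0.0502), shCtrl library 3 (0.0616) or shPRSS22 library 2 (0.0848), and with DESeq2 (0.0891). The other small subunit, SEC61G, had a value of 0.11 (adjusted p = 0.0583), and it was called without shPRSS22 library 2 (0.0385) and when replicate numbers were blocked (0.0464).

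The TRAP complex (SSR1 to SSR4), which sits beside the channel and helps some signal peptides engage it, had 0 of 4 genes past the threshold. Its values lay between -0.09 for SSR4 and 0.04 for SSR3, and the 95% intervals of SSR1, SSR2 and SSR3 reached no higher than 0.11. Without shPRSS22 library 2, SSR4 was called lower (-0.14, edgeR adjusted p = 0.0123). SEC62 and SEC63, which assist post-translational entry, had values of 0.03 and 0.01, with 95% intervals of -0.05 to 0.10 and -0.08 to 0.09.

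The paralogous catalytic subunits of signal peptidase went opposite ways. SEC11A had 102, 101 and 101 CPM in shCtrl and 123, 124 and 119 CPM in shPRSS22, a rise of 0.27 on the log2 scale (SE 0.0376; edgeR, adjusted p = 7.08e-07). SEC11C had 74.4, 79.1 and 76.8 CPM in shCtrl and 65.6, 63.3 and 67.8 CPM in shPRSS22, with a log2 fold change of -0.23 (SE 0.0447; adjusted p = 1.30e-04). Neither gene's groups overlapped.

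Among the shared subunits of signal peptidase, SPCS1 had 80.5, 83.9 and 83.5 CPM in shCtrl and 74.6, 80.6 and 73.1 CPM in shPRSS22. It fell with overlapping groups (log2 fold change -0.12; edgeR, adjusted p = 0.0322). The call missed the threshold without shCtrl library 2 (0.108), shCtrl library 3 (0.10), shPRSS22 library 1 (0.107) or shPRSS22 library 3 (0.136), and with DESeq2 (0.129). SPCS1 shares exon bases on the opposite strand with GLT8D1 (log2 fold change -0.13) and NEK4 (-0.07), neither of which passed. Its estimated counts carried decimals in 5 libraries. SPCS2 had a value of 0.09 and SPCS3, the accessory subunit needed for cleavage, one of -0.05; neither passed. SPCS2 was called higher without shCtrl library 2 (0.13, adjusted p = 0.0140), without shPRSS22 library 1 (0.11, 0.0438), when replicate numbers were blocked (0.0191) and with no filter on low counts (0.0484).

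Of the 11 COPII genes, 8 rose (72.7%) and 0 fell, with a median log2 fold change of 0.18. Over all genes tested, 19.9% rose and 19.3% fell. SEC24A, an isoform of the cargo-binding inner coat subunit, had 64.6, 69.1 and 67.1 CPM in shCtrl and 88.9, 88.0 and 92.7 CPM in shPRSS22. The lowest knockdown library lay well above the highest control, a 1.34-fold rise (log2 fold change 0.43, SE 0.0434; edgeR, adjusted p = 1.99e-09). SEC23A, the inner coat subunit that activates SAR1's GTPase, had 129, 122 and 135 CPM in shCtrl and 169.8, 170.2 and 177 CPM in shPRSS22. This was a 1.34-fold rise as well (0.42, SE 0.0378; adjusted p = 1.26e-10). SEC13, a beta-propeller protein of the outer cage that also serves nuclear pores, had 88.8, 89.1 and 90.7 CPM in shCtrl and 108.0, 114 and 115 CPM in shPRSS22 (0.33, SE 0.0396; adjusted p = 5.91e-08).

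The GTPase SAR1A, which starts coat assembly, rose by 0.28 and SAR1B by 0.18. SAR1B missed the threshold without shPRSS22 library 3 (log2 fold change 0.11; edgeR, adjusted p = 0.0543). SEC24D rose by 0.20, and SEC31A, SEC13's partner in the outer cage, by 0.15. SEC24C rose by 0.09 and missed the threshold without shCtrl library 1 (0.0981), shCtrl library 3 (0.200) or shPRSS22 library 3 (0.146), and with DESeq2 (0.102). SEC23B, SEC24B and SEC16A, a scaffold of ER exit sites, had values of 0.01, -0.02 and 0.00, with 95% intervals of -0.05 to 0.08, -0.11 to 0.06 and -0.10 to 0.10.

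SEC24A and SAR1B overlap head to head on chromosome 5 in the GENCODE annotation (GRCh38). SAR1B runs from 134601144 to 134649271 on the minus strand and SEC24A from 134648789 to 134727823 on the plus strand, so reads in the shared stretch could be divided between them. Estimated counts carried decimals in 0 libraries for SEC24A and in 2 for SAR1B. Whether reads were divided was not tested. The TGACGTGG site shown for SEC24A, 179 bases before its start, lies within the span of SAR1B.

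Of the 10 COPI and ARF genes, 7 rose (70%) and 2 fell (20%), against 19.9% and 19.3% of all genes tested, with a median of 0.13. ARCN1, the delta subunit of the coat, had 272, 263 and 276 CPM in shCtrl and 347, 339 and 348 CPM in shPRSS22. Its 1.28-fold rise was the largest estimate among the COPI subunits (log2 fold change 0.35, SE 0.0330; edgeR, adjusted p = 3.29e-10). ARF4, a GTPase of early Golgi membranes, had 296, 304 and 309 CPM in shCtrl and 354, 374 and 361 CPM in shPRSS22 (0.26, SE 0.0335; adjusted p = 1.72e-07). ARF1, the main COPI recruiter, had a value of 0.02 (95% interval -0.05 to 0.09) and did not pass.

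The gamma subunit is encoded by a pair of paralogs, which moved apart. COPG1 had 325, 323 and 321 CPM in shCtrl and 365, 368 and 379 CPM in shPRSS22, a log2 fold change of 0.20 (SE 0.0324; edgeR, adjusted p = 1.14e-05). COPG2 had 59.2, 53.9 and 59.9 CPM in shCtrl and 45.8, 47.4 and 46.4 CPM in shPRSS22, a log2 fold change of -0.31 (SE 0.0512; adjusted p = 1.23e-05). It was the largest fall among the 50 genes, with no overlap between groups. COPG2 shares exon bases on the opposite strand with MEST, whose value of 0.09 did not pass.

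The remaining large subunits rose by similar amounts: COPB2 by 0.18, COPB1 by 0.14 and COPA by 0.12, all with groups that did not overlap. COPA shares exon bases with NCSTN on the opposite strand, which fell by 0.39 on the log2 scale. COPE, the epsilon subunit, rose by 0.10, and missed the threshold without any 1 of shCtrl libraries 1 to 3 (edgeR, adjusted p = 0.0842, 0.0947 and 0.0889), shPRSS22 library 2 (0.135) or shPRSS22 library 3 (0.0510), and with DESeq2 (0.128). COPZ1, the small zeta subunit, had 198, 207 and 199.8 CPM in shCtrl and 184, 199 and 183 CPM in shPRSS22. It fell with overlapping groups (log2 fold change -0.10; edgeR, adjusted p = 0.0356). The call missed the threshold without shCtrl library 2 (0.172), shCtrl library 3 (0.0654), shPRSS22 library 1 (0.154) or shPRSS22 library 3 (0.129), and with DESeq2 (0.0986).

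**Figure D2:**
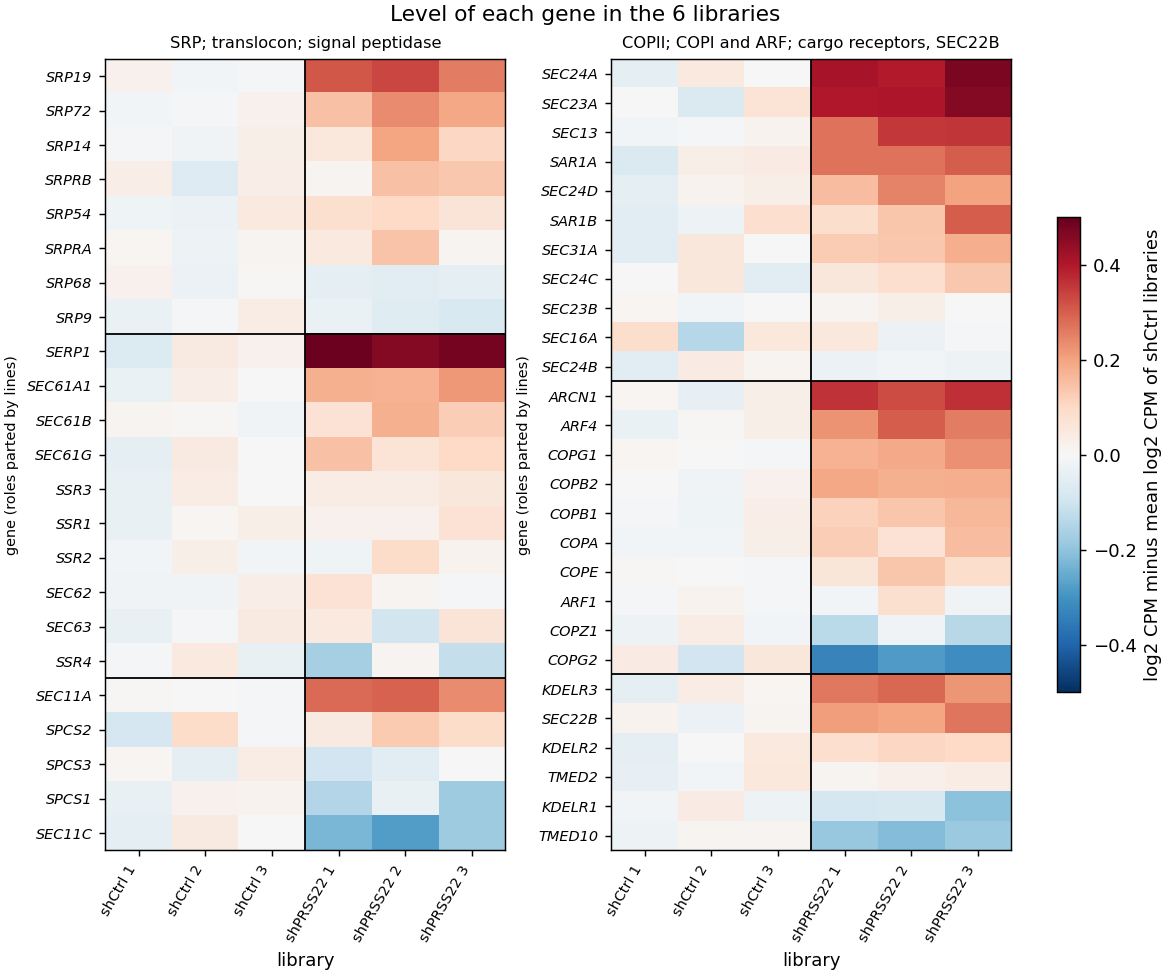
Log2 CPM of each of the 50 genes (rows, parted by role) in the 6 libraries (columns), relative to the gene's mean over shCtrl libraries; red is higher and blue lower. SERP1, SEC24A and SEC23A are the darkest red rows in all 3 shPRSS22 libraries, and COPG2 the darkest blue.

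Cargo receptors moved both ways, 3 of 6 genes of this group rising and 2 falling, where 19.9% and 19.3% of all genes tested did so. KDELR3, a receptor that returns soluble ER proteins from the Golgi, had 107, 113 and 111 CPM in shCtrl and 133, 135 and 129 CPM in shPRSS22. Its groups did not overlap (log2 fold change 0.26, SE 0.0378; edgeR, adjusted p = 1.91e-06). KDELR3 shares exon bases on the opposite strand with DDX17, which fell (log2 fold change -0.12). KDELR2, a close relative of KDELR3, had 263, 272 and 282 CPM in shCtrl and 288, 292 and 291 CPM in shPRSS22. It rose by 0.09 with no overlap, and missed the threshold without shCtrl library 1 (adjusted p = 0.170) or shCtrl library 2 (0.0721). KDELR1 fell, with 209, 217 and 207 CPM in shCtrl and 198, 199 and 183 CPM in shPRSS22 (-0.12, SE 0.0362; adjusted p = 0.00671). The call missed the threshold without shCtrl library 2 (0.0575) or shPRSS22 library 3 (0.0610).

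TMED10, a p24 family receptor that cycles between ER and Golgi and was the most abundant of the 50 genes in CPM, had 745, 766 and 765 CPM in shCtrl and 665, 653 and 667 CPM in shPRSS22. The controls all stood above the knockdown libraries, a log2 fold change of -0.20 (SE 0.0329; edgeR, adjusted p = 1.40e-05). TMED2, its p24 partner, had a value of 0.02 (95% interval -0.04 to 0.09). SEC22B, a SNARE of ER-Golgi vesicles, had 190.3, 184 and 190.0 CPM in shCtrl and 217, 216 and 226 CPM in shPRSS22 (0.23, SE 0.0340; adjusted p = 2.90e-06).

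Paralogs that take the same place in a coat, enzyme or receptor were compared as a ratio of counts within each library, which needs no scaling. Of 8 pairs compared, 6 had ratios that did not overlap between groups. Among single genes tested, 48.6% had CPM that did not overlap, and no such share was computed for other gene pairs. All ratios use the same counts as the single-gene tests above, so none is separate evidence. The COPG, SEC11 and both KDELR pairs join genes called in opposite directions. SEC23A and SEC24A were called higher above, while SEC23B and SEC24B did not pass. The SEC23B to SEC23A log2 ratio was 0.65, 0.70 and 0.57 in shCtrl and 0.25, 0.27 and 0.18 in shPRSS22, so the excess of SEC23B narrowed by 0.41 (exact permutation p = 0.10, n = 3). SEC24B to SEC24A went from 0.29, 0.29 and 0.31 to -0.14, -0.11 and -0.20, a change of sign in every library. COPG2 to COPG1 shifted by -0.51, SEC11C to SEC11A by -0.50, KDELR3 to KDELR1 by 0.38 and KDELR2 to KDELR1 by 0.22. SEC24D to SEC24C (0.11) and SAR1B to SAR1A (-0.10) overlapped between groups (exact permutation p = 0.20, n = 3). With 3 libraries against 3, a two-sided exact permutation test cannot go below p = 0.10. Adjusted over the 8 pairs, the exact permutation p-values were 0.133 for the 6 pairs and 0.20 for the others, so no pair passed 0.05.

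**Figure D3:**
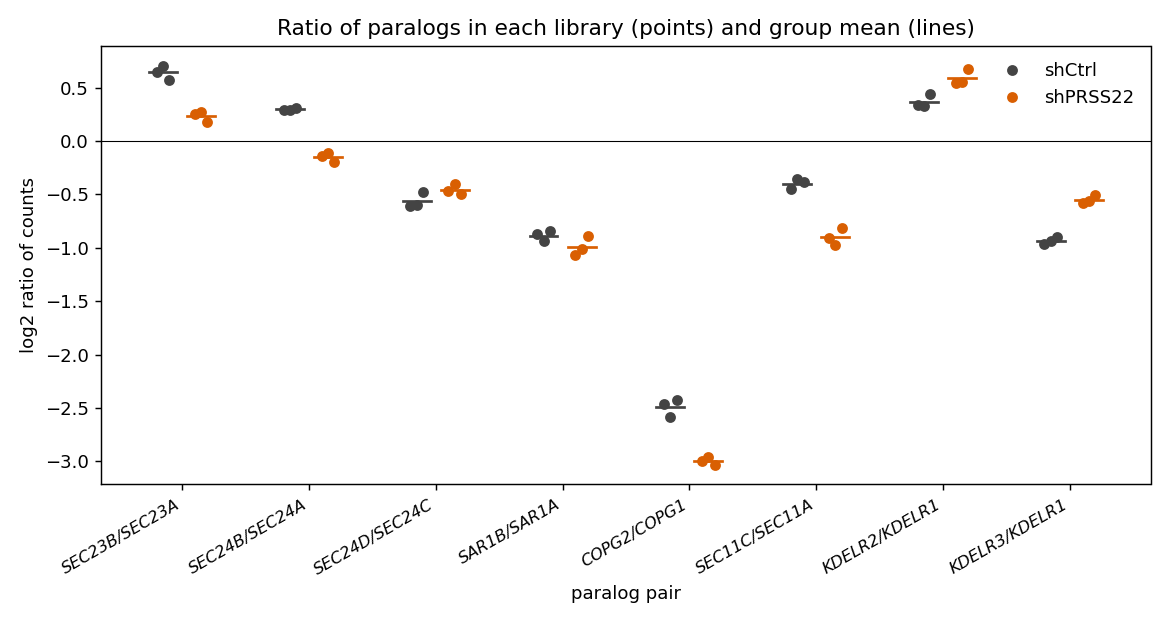
Log2 ratio of the counts of 2 paralogs (vertical axis) for 8 pairs (horizontal axis), 1 point per library with group means as lines. The groups separate for SEC23B/SEC23A, SEC24B/SEC24A, COPG2/COPG1, SEC11C/SEC11A and both KDELR pairs, and overlap for SEC24D/SEC24C and SAR1B/SAR1A.

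Levels of different genes were compared per transcript length, in the authors' deposited TPM. Among the 7 COPI subunits with COPG1 as gamma, shCtrl means spanned 117 TPM for ARCN1 to 222 TPM for COPE, a 1.90-fold range, and the range was 1.65-fold in shPRSS22. ARCN1, the subunit at the low end in controls, had the largest estimated rise of the COPI subunits, from 117 ± 3.68 to 151 ± 5.14 TPM (SD, n = 3). COPG2 made up 14.8% ± 0.716 of the summed gamma subunit TPM in shCtrl and 10.9% ± 0.243 in shPRSS22. COPII was less even: means in shCtrl spanned 18.5 TPM for SEC24A to 138 TPM for SEC13, a 7.47-fold range, and 6.99-fold in shPRSS22.

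Shares of TPM moved as the ratios did. SEC24A, the lowest SEC24 isoform, went from 10.4% ± 0.298 to 12.7% ± 0.151 of SEC24 TPM, and SEC24C, the highest, from 39.3% ± 1.15 to 38.0% ± 0.565 (SD, n = 3). SEC23A went from 33.2% ± 0.983 to 39.8% ± 0.754 of SEC23 TPM. SEC11A held 45% ± 0.620 of SEC11 TPM in shCtrl and 53.6% ± 1.33 in shPRSS22, which made it the larger of the pair. KDELR3 went from 22.6% ± 0.0656 to 26.2% ± 0.133 of KDEL receptor TPM, KDELR1 from 47.0% ± 0.844 to 42.1% ± 0.920, and KDELR2 from 30.4% ± 0.868 to 31.7% ± 0.876.

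**Figure D4:**
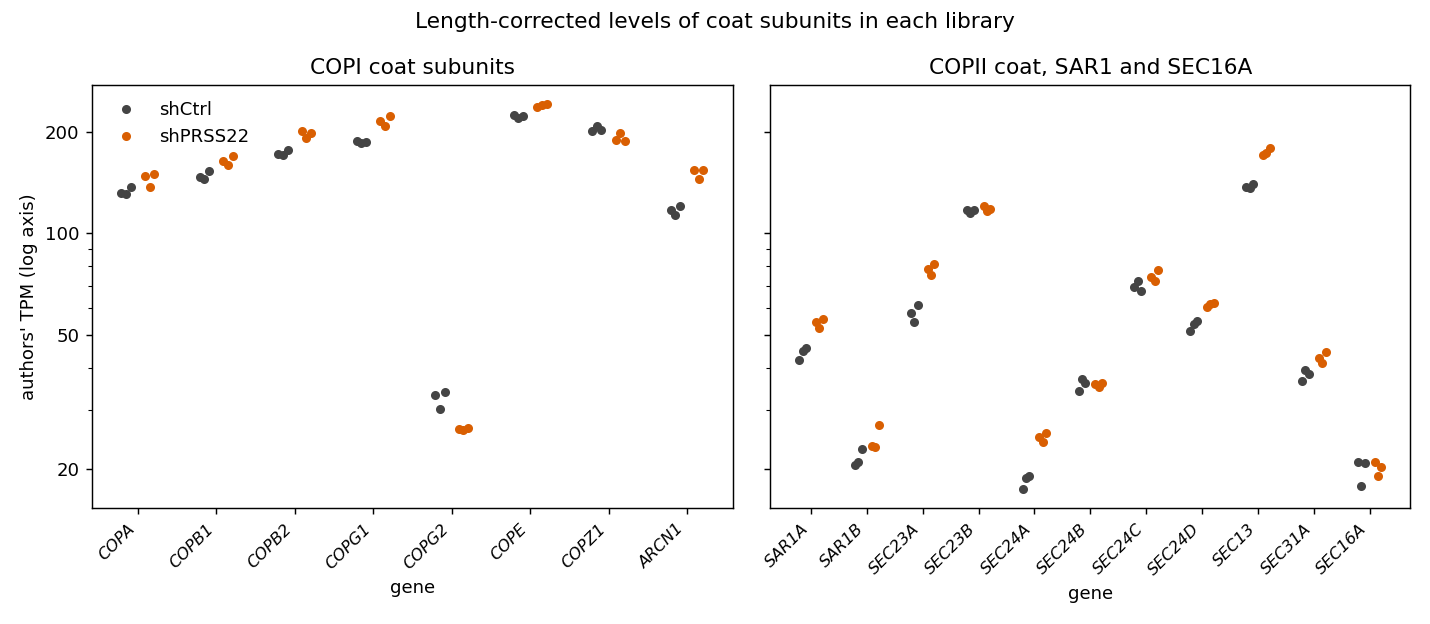
The authors' TPM (log axis) of COPI subunits (left) and of COPII coat, SAR1 and SEC16A genes (right), 1 point per library. Most COPI subunits lie close together between 117 and 222 TPM in shCtrl, with COPG2 far below them, while COPII genes spread more widely.

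Other genes of this route moved both ways. Over 128 further genes in 7 lists, 120 were tested, of which 37 rose (30.8%) and 23 fell (19.2%), where 19.9% and 19.3% of all genes tested did so, with a median log2 fold change of 0.04. Among 16 tested translocation factors 5 rose and 3 fell. TRAM1, which lies beside the channel and meets signal peptides, rose from 593.8 ± 24.1 to 794 ± 22.5 CPM (log2 fold change 0.42; edgeR, adjusted p = 3.36e-11), and HSPA13, a microsomal HSP70 protein, rose by 0.30. NOMO1 (-0.19) and NOMO2 (-0.10), part of a translocon-associated complex, fell; the copies are near-identical and could split reads. NOMO2 missed the threshold without shCtrl library 1 (adjusted p = 0.0714) or library 3 (0.0864).

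Among 17 tail-anchor insertion and ER membrane complex (EMC) genes 4 rose and 6 fell. The insertase subunit GET1 (0.44) and EMC8 (0.22) rose, while EMC10 (-0.48) and EMC1 (-0.26) fell. Among 10 further COPII and ER exit genes 4 rose and 3 fell. MIA2 (0.20), which helps load large cargo, and TFG (0.15), a protein of ER exit sites, rose, and PEF1 (-0.44) and KLHL12 (-0.20), which act together in ubiquitination of SEC31, fell.

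Of 11 further COPI, ARF and regulator genes 1 rose and 2 fell: ARFGAP1 (0.22) was higher and ARFGAP2 (-0.29), both GTPase activators of ARF, lower. ARF3 also fell (-0.23) and missed the threshold without shCtrl library 1 (edgeR, adjusted p = 0.125), shCtrl library 3 (0.123) or shPRSS22 library 1 (0.118), and stood at 0.050 with DESeq2's scaling factors. Of 22 further cargo receptors 8 rose and 2 fell. CNIH4 (0.27), a cornichon family export receptor, and YIF1B (0.22) rose, and LMAN2 (-0.43), a lectin for glycoproteins, and TMED4 (-0.13) fell. YIF1B missed the threshold without shPRSS22 library 3 (0.0582) and TMED4 without shCtrl library 2 (0.136) and with DESeq2 (0.0598).

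Of 36 ER-Golgi tether and SNARE genes 12 rose and 5 fell, with a median of 0.08. The tether subunit TRAPPC3 (0.27) and SCFD1 (0.24), a partner of the Golgi SNARE syntaxin 5, rose. The SNAREs GOSR2 (-0.24) and STX17 (-0.19) fell. Of 8 tested transcription factors of the secretory pathway 3 rose and 2 fell. CREB3 (0.28) and BHLHA15 (0.22) rose, and CREB3L4 (-0.50), at 5.68 CPM on average, and ATF6B (-0.36) fell. BHLHA15 missed the threshold without shCtrl library 3 (edgeR, adjusted p = 0.0881) and with DESeq2 (0.0830). XBP1, named after its values were seen, was the third factor to rise, with 185, 195 and 188 CPM in shCtrl and 216, 226 and 205 CPM in shPRSS22 (0.18; adjusted p = 1.50e-04), and ATF6 had a value of 0.02 that did not pass.

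**Figure D5:**
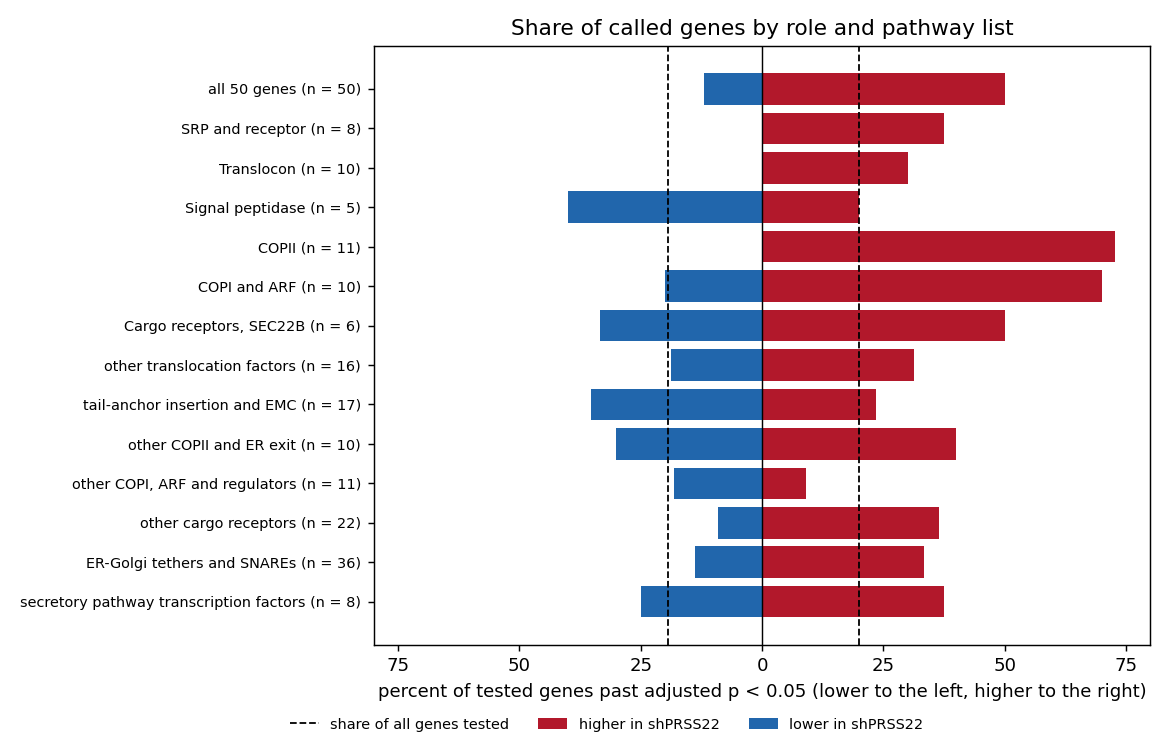
Percent of tested genes called higher (red, to the right) or lower (blue, to the left) in shPRSS22 for the 50 genes, their 6 roles and 7 further pathway lists, with the number tested; dashed lines mark the 19.9% and 19.3% of all genes tested. COPII (72.7%) and COPI and ARF (70%) have the longest red bars.

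Exons of 26 of the 50 genes overlap exons of a gene on the opposite strand in GENCODE, and the library protocol describes no strand marking. Of the 24 genes without such overlap, 12 rose and 4 fell. Estimated counts carried decimals, a sign of reads shared with other genes, in at least 1 library for 9 of the 50 genes.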

How the data were processed

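Poly(A) RNA of 3 shCtrl and 3 shPRSS22 libraries was measured. Per the submitters' processing notes, the tools were RSEM 1.3.1, HISAT2 2.2.1, DESeq2 1.4.5, FastQC 0.12.1, R 4.3.1 and Bowtie2 2.3.4.3, with build GRCh38.p13; their roles are not stated. Per the file headers, the authors deposited estimated counts, TPM, FPKM, a normalised count signal, a log2 fold change, p-values and q-values; FPKM and the normalised signal were not used.

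Here the estimated counts were rounded and tested with edgeR 4.0.16 in R 4.3.3 (TMM, filterByExpr, robust quasi-likelihood F test, two-sided, Benjamini-Hochberg over 13104 genes, threshold 0.05). The script was tested on simulated data: 164 of 196 changed genes among 13039 were recovered, with 8 false calls. CPM are TMM-scaled; SE is the fold change divided by the square root of F; intervals are 95%. DESeq2 1.42.0 was an alternative, beside other scaling, filters, a replicate block and leaving out each library. Chi-square per gene between replicates was 1.80 to 3.05, more than counting noise alone would give. Each library counted once, and these values cannot show whether the libraries were separate cultures. The common coefficient of variation was 2.97%.

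The 50 genes, the lists, the motifs and the naming rule were chosen with earlier results of these data known. By that rule, each role shows every library's value for its top rises and falls past the threshold (at most 3 each way), gives other members by value, and each further list names at most 2 genes each way with mean CPM 1 or more.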

Additional observations from a re-analysis of the deposited data

How the results depend on the processing

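Under the alternative settings no called gene of the 50 changed direction. Of the uncalled genes, 3 changed sign: SEC63 ranged from -0.020 to 0.058, SEC16A from -0.066 to 0.047 and ARF1 from -0.011 to 0.035 (log2 fold change) over the settings. With single libraries left out, the 50 genes gave 21 to 27 higher and 3 to 7 lower, and all genes 2161 to 2484 higher and 2079 to 2271 lower. DESeq2 called 1759 genes higher and 1637 lower over the table, against 2603 and 2523, and no longer called COPE, COPZ1, SEC24C, SEC61B, SPCS1, SRP14, TMED4 and BHLHA15. ARF3 stood at the threshold with DESeq2's scaling factors in edgeR (adjusted p = 0.050). With the replicate number as a block, 2782 genes were higher and 2747 lower, 27 and 6 of the 50; SEC61G and SPCS2 were added and the paralog differences gave exact sign-flip p-values of 0.25 to 0.50. Same-numbered libraries deviated together only weakly (r = 0.019, 0.033 and 0.091), and not every library correlated best with its own number. The 9 calls among the 50 genes that were lost in any setting had log2 fold changes between -0.12 and 0.18.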
